A study of Homo sapiens with 23 samples.

Results

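Proteins that read acylated lysines on histones are themselves encoded by genes that can carry these marks, and 9 such reader genes were examined as targets of histone propionylation, butyrylation and acetylation. They were chosen by name from 20007 protein-coding genes of the GENCODE 44 annotation: 4 YEATS genes (*MLLT1*, *MLLT3*, *YEATS2* and *YEATS4*), 3 double PHD finger genes (*DPF1*, *DPF2* and *DPF3*) and 2 genes of the bromodomain family (*BRD2* and *BRD3*). The cells were SW480, an established human colorectal cancer line of epithelial origin, profiled by ChIP-seq against lysine 18 of histone H3 (H3K18) and lysine 12 of histone H4 (H4K12). Propionylation (pr) and acetylation (ac) were profiled in cells given 10 mM sodium propionate (NaPr), butyrylation (bu) and acetylation in cells given 1 mM sodium butyrate (NaBu), for 12 to 16 h in each case, and acetylation also in untreated cells. Each of the 10 combinations had 2 libraries, and each of the 3 culture conditions had 1 input library, which gave 20 immunoprecipitated and 3 input libraries. The labels do not say whether the libraries of a group came from separate cultures, so p-values measure only the spread between libraries, which may be technical, and all values describe 1 cell line.

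Acyl groups on lysines of histone tails are recognised by small protein modules. The YEATS domain holds the modified lysine in an open-ended aromatic pocket that accepts acetyl and longer acyl chains such as crotonyl, the double PHD finger binds acetylated and acylated lysine on the H3 tail, and the bromodomain is the classical reader of acetyl-lysine and in some proteins also accepts propionyl-lysine. *MLLT1* and *MLLT3* encode subunits of the super elongation complex and partners of the H3K79 methyltransferase DOT1L, *YEATS2* encodes a subunit of the ATAC acetyltransferase complex, and *YEATS4* encodes a subunit shared by the NuA4 acetyltransferase and SRCAP remodelling complexes. *DPF1*, *DPF2* and *DPF3* encode alternative subunits of the BAF remodelling complex, *DPF1* known mainly from neurons and *DPF3* from heart and muscle, and *BRD2* and *BRD3* encode BET proteins that bind acetylated chromatin and support transcription.

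The measurement was the list of enriched regions that the authors called for each library. For each gene the window was its body with 1 kb on both sides, and the quantities were the number of regions in it, the percentage of its bases covered (coverage), the rank of its strongest region within the list, and whether a region lay within 500 bp of its transcription start site (TSS, the 5′ end of the Ensembl canonical transcript). Coverage records how much of a gene passed a calling threshold and is not a level of the modification.

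*BRD2* stood apart from the other readers. It held a region in all 20 immunoprecipitated libraries, its coverage ranged from 10.3% to 50.6%, and its strongest region was in the top 1% of the list in 14 libraries and in the top 10% in all 20. None of the others did so in every library. Ranks were computed for the reader genes only, so no share of all genes stands beside them. *YEATS2* carried H4K12pr and H4K12ac regions spread along its body. *DPF1* carried propionyl regions at both sites and acetyl regions mainly at H3K18. No difference between the sites passed adjustment for multiple testing, and those of *YEATS2* and *DPF1* were smaller with lists of equal length. *MLLT3* and *DPF3*, the longest of the genes, were covered by at most 0.911% and 3.58%.

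The sequences below were read from the hg38 genome at GENCODE 44 coordinates and are given 5′ to 3′ on the strand of the gene. The *BRD2* stretch lies within the segment that every immunoprecipitated list held, in the middle of its 478 bp that are free of exons. The others are the 250 bases before the canonical TSS of *BRD3*, a bromodomain gene whose TSS was occupied in 4 of 20 lists, and of *DPF3*, occupied in 1. For *BRD3* a region in the flank, from -554 bp outward when merged over libraries, was held by 10 lists. The commonest regions of both genes lie elsewhere. Capitals mark matches, on either strand, to the AP-1 motif TGANTCA, the GC box GGGCGG or the E-box CACGTG.
*BRD2*, chr6:32969843-32970142, plus strand: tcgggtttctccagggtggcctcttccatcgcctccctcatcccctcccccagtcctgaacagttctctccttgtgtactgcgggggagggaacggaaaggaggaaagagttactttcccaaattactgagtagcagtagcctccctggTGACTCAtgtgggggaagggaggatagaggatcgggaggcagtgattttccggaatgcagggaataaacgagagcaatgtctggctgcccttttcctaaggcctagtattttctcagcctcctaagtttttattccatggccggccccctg
*BRD3*, chr9:134068027-134068276, minus strand: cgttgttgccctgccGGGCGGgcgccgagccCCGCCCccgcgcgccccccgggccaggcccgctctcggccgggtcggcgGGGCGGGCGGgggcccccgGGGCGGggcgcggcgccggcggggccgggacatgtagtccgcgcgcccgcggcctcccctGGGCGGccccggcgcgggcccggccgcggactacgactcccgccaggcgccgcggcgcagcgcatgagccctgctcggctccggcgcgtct
*DPF3*, chr14:72894102-72894351, minus strand: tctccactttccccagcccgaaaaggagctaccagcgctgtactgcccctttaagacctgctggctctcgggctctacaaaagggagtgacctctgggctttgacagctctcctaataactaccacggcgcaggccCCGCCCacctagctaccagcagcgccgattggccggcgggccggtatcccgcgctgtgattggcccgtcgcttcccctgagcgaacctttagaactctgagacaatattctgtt

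The *BRD2* stretch lies 1249 to 1548 bp past the TSS, held 8 CG pairs and 1 match to the AP-1 motif, and had no GC box. Of the windows at the same distance past the TSS of 20006 protein-coding genes, 7.66% held the AP-1 motif, 12.1% a GC box and 3.46% an E-box. Before the TSS, *BRD3* had 48 CG pairs and 6 GC boxes, and *DPF3* had 16 CG pairs and 1 GC box. The median over 20006 promoters of the same length was 18 CG pairs (quartiles 7 and 27), 59.0% held a GC box, 4.73% the AP-1 motif and 7.86% an E-box. CG counts of 6 other members were 34 for *MLLT1*, 24 for *MLLT3*, 17 for *YEATS4*, 28 for *DPF1*, 30 for *DPF2* and 27 for *BRD2*. A match is a run of letters and does not show that a factor binds.

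The lists held 8158 to 208823 regions, and the shortest were those of H4K12bu. Depth could be recovered from the deposited values for 13 libraries and was 3.38 to 8.38 fragments per kb in the propionyl, 24.1 to 38.6 in the NaPr acetyl and 11.2 to 38.5 in the untreated acetyl libraries. It was not recovered for the NaBu libraries or the untreated input. Fold and p of a region move with depth, so lists were compared through coverage and rank. Rank as a percentage of the list still moves with list length. Coverage counts regions that passed a threshold on p, so it also moves with depth and list length. The main tests made no correction for either. H3K18ac NaPr replicate 1 stood apart from its label: its coverage over all genes was closest to H4K12ac untreated replicate 1 (Spearman 0.929) and further from its own replicate (0.730), and results that rest on it are given with and without it. The H4K12ac NaBu libraries were the least alike of any group (0.531). Replicate 1 had 88658 regions, and replicate 2 had 11680 and held a region of 2 members. Coverage of that replicate 2 was closest to H3K18bu NaBu replicate 1 (0.683). Several other libraries were also closest to a library of another group. Run tags in the list names fell into 3 batches, of which one held the propionyl libraries, another the acetyl libraries of NaPr and untreated cells, and the last all NaBu libraries. Propionyl and acetyl, and NaBu and untreated, therefore cannot be told apart from batch, whereas butyryl and acetyl, and NaPr and untreated acetyl, shared one. Of 8 colorectal epithelium markers, 6 had an occupied TSS in both untreated H3K18ac libraries and 3 in both untreated H4K12ac libraries. Of 8 markers of other cell types 0 did at either site, beside 62.8% and 57.8% of all genes.

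**Figure D1:**
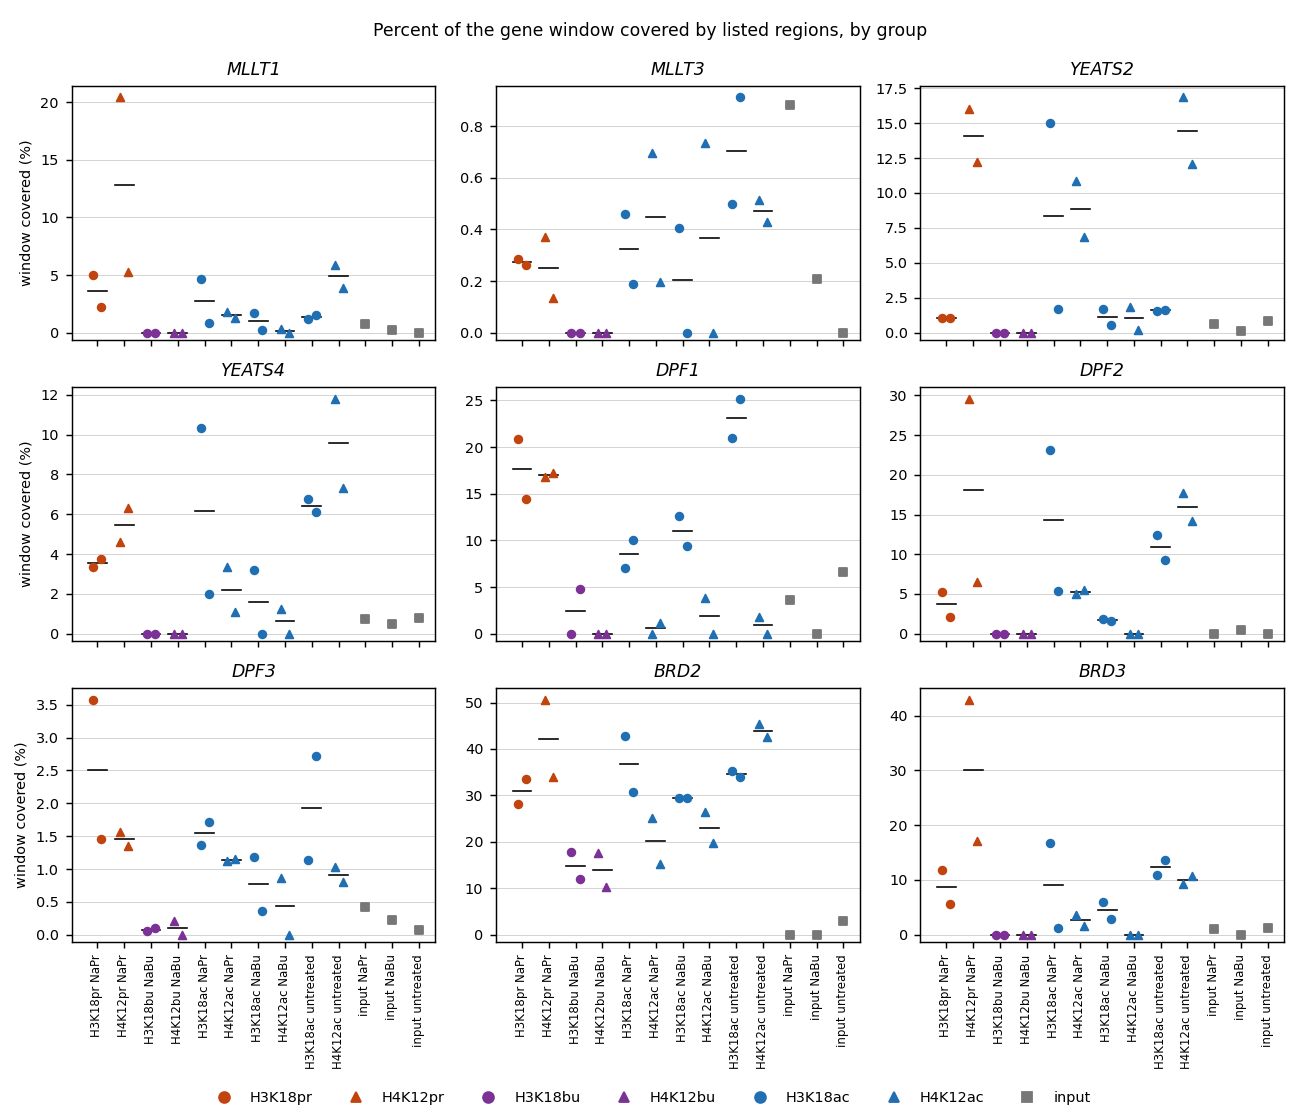
Percentage of each gene window covered by listed regions (y axis, own scale per gene) in each of 23 libraries, by group (x axis). Points are libraries, horizontal lines are means of 2 libraries, and inputs are grey squares. *BRD2* lies between 10.3% and 50.6% in the immunoprecipitated libraries and between 0% and 2.90% in the inputs, whereas most other members reach 0% in the butyryl libraries. In single butyryl libraries 18.3% to 34.35% of all protein-coding genes held a region.

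*BRD2* spans chr6:32968594-32981505 on the plus strand, 12.9 kb, against a median of 27.5 kb over protein-coding genes, and its window also overlaps HLA-DMA. Coverage in the propionyl libraries was 28.1% and 33.6% for H3K18pr and 50.6% and 33.9% for H4K12pr. In the butyryl libraries H3K18bu covered 17.8% and 11.9% and H4K12bu 17.6% and 10.3%. Acetyl libraries of NaPr cells gave 42.9% and 30.8% for H3K18ac and 25.2% and 15.3% for H4K12ac. The butyryl libraries were therefore at the low end, and *BRD2* was the only one of the 9 genes with a region in all 4 of them. Most protein-coding genes had no region there either. The share with a region was 34.35% and 31.29% in the H3K18bu libraries and 20.7% and 18.3% in the H4K12bu libraries. In NaBu cells H3K18ac covered 29.45% and 29.41% and H4K12ac 26.4% and 19.7%. In untreated cells H3K18ac covered 35.3% and 34.1% and H4K12ac 45.3% and 42.6%. The inputs were at 0%, 0% and 2.90%, below every immunoprecipitated library. Within each library *BRD2* was between the 93.9 and 99.8 percentile of all protein-coding genes.

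The regions of *BRD2* lay over its 5′ end. Merged over libraries, the largest ran from chr6:32966941 to chr6:32972119 across the TSS and exons 1 and 2, was present in 20 of 20 immunoprecipitated lists and in 1 input list, and had a median fold over background of 6.83 and a highest of 88.0. Its inner segment, chr6:32969499-32970641, 1143 bp wide and centred 1475 bp past the TSS, was covered in every one of the 20 lists; it contains the stretch with the AP-1 match shown above. A second region, chr6:32972218-32973664 over exon 2, was present in 14 libraries and in no butyryl library. Regions of the gene body beyond about 5 kb appeared mainly in H4K12 libraries and H3K18ac NaPr replicate 1, and a region at chr6:32978437-32979523 was held by 5 libraries, all against H4K12.

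**Figure D2:**
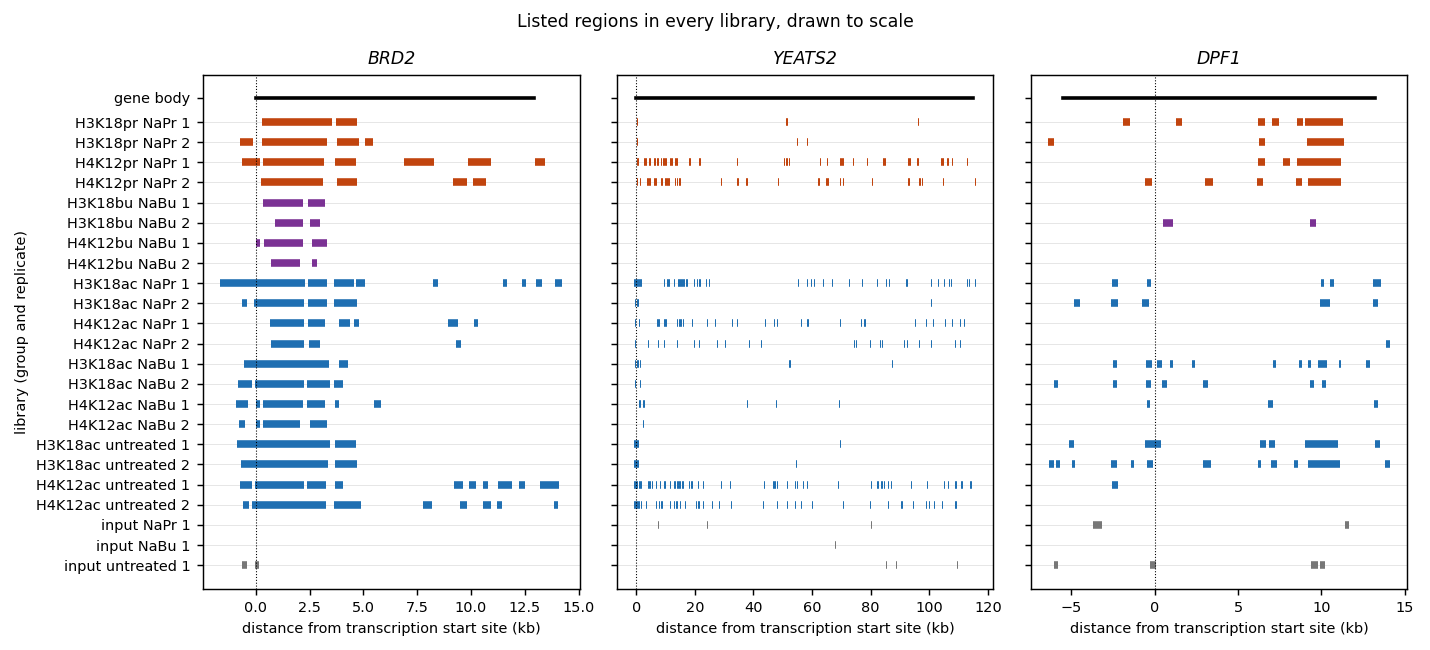
Listed regions of *BRD2*, *YEATS2* and *DPF1* in each library (rows), drawn to scale against the distance from the transcription start site in kb (x axis), with the gene body as a black bar and the start as a dotted line. Regions of *BRD2* gather in the first kilobases in all 20 immunoprecipitated libraries, those of *YEATS2* spread over the gene in H4K12pr and H4K12ac libraries and in H3K18ac NaPr replicate 1, and those of *DPF1* lie mainly near 10 kb.

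*BRD3*, the other BET gene (chr9:134030305-134068535, minus strand, 38.2 kb, window shared with BRD3OS), had a wider range from 0% to 42.9% and a median of 4.603%. H3K18pr covered 11.75% and 5.54%, and H4K12pr 42.9% and 17.1%, the highest pair of values for this gene. All 4 butyryl libraries and both H4K12ac NaBu libraries had no region in its window, and H3K18ac NaBu covered 5.97% and 2.94%. H3K18ac covered 16.8% and 1.16% in NaPr cells and 10.9% and 13.65% in untreated cells, and H4K12ac 3.67% and 1.55% in NaPr and 9.26% and 10.8% in untreated cells. The inputs were at 1.04%, 0% and 1.30%. The H3K18ac libraries of NaPr cells were thus far apart for this gene. The region held most often, chr9:134049142-134058375 over exons 2 to 5, was present in 13 libraries and in 1 input. The canonical TSS of *BRD3* was occupied in 4 libraries only, with a further region in the flank, at -554 bp from the TSS, in 10. That TSS lies 509 bp inside the gene record, whose 5′ end is closer to the flank region.

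Among the YEATS genes, *YEATS2* (chr3:183697797-183812624, plus strand, 114.8 kb, overlapped by YEATS2-AS1) carried H4K12pr over 16.0% and 12.2% of its window and H3K18pr over 1.03% and 1.08%. In untreated cells H4K12ac covered 16.8% and 12.1% and H3K18ac 1.55% and 1.66%. In NaPr cells H4K12ac covered 10.9% and 6.88%, and H3K18ac 14.99% in replicate 1 and 1.69% in replicate 2. H4K12 was thus higher than H3K18 without overlap for the propionyl and the untreated acetyl marks, and for NaPr acetyl once the doubtful replicate 1 was set aside. In NaBu cells the acetyl libraries were between 0.188% and 1.86%, and all 4 butyryl libraries had no region. The inputs were at 0.626%, 0.124% and 0.810%.

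The H4K12 regions of *YEATS2* were many and lay along the gene rather than at its start. Merging gave 109 regions, of which 57 were held by 1 library. More than 2 kb from the TSS, H4K12pr covered 18.01 kb in 28 regions and 13.5 kb in 23, and H4K12ac of untreated cells 17.3 kb and 12.0 kb, against 0.840 kb and 0.704 kb for H3K18pr and 0.265 kb and 0.672 kb for untreated H3K18ac. H3K18ac NaPr replicate 1 had 15.3 kb there and replicate 2 had 0.571 kb. Near the start the sites were alike in occupancy: the TSS region, chr3:183697003-183699843, was held by 15 libraries, 8 against H3K18 and 7 against H4K12, with a median fold of 3.87.

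*YEATS4* (chr12:69359710-69390870, plus strand, 31.2 kb) had the next best rank after *BRD2*. Its TSS region, chr12:69359209-69361629, was held by 13 libraries, reached a fold of 33.6 and was within the top 1% of the list in 2. These were H3K18ac NaPr replicate 1 and H3K18ac untreated replicate 2. H3K18pr covered 3.36% and 3.75% and H4K12pr 4.61% and 6.33%. In NaPr cells H3K18ac covered 10.35% and 1.99% and H4K12ac 3.33% and 1.09%. Untreated cells had 6.77% and 6.10% for H3K18ac and 11.8% and 7.30% for H4K12ac, above both NaBu acetyl pairs, at 3.18% and 0% for H3K18ac and 1.25% and 0% for H4K12ac. The butyryl libraries had no region, and the inputs were between 0.486% and 0.805%.

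*MLLT1* (chr19:6210381-6279975, minus strand, 69.6 kb) ranged from 0% to 20.4% with a median of 1.41%. The highest value came from H4K12pr replicate 1, and replicate 2 had 5.24%. H3K18pr covered 5.01% and 2.19%, untreated H4K12ac 5.91% and 3.85% and untreated H3K18ac 1.18% and 1.54%. Its commonest region, chr19:6241198-6244739, lay in an intron 35236 bp past the TSS and was held by 11 libraries and 1 input. *MLLT3* (chr9:20341669-20622499, minus strand, 280.8 kb) was covered by 0% to 0.911% and exceeded all 3 inputs, which reached 0.881%, in 1 of 20 libraries. Its commonest region, chr9:20620570-20621877 over exon 2 and 622 bp past the TSS, was held by 9 libraries. Neither gene had a region in a butyryl library.

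Among the double PHD finger genes, *DPF1* (chr19:38211006-38229714, minus strand, 18.7 kb) carried H3K18pr over 20.8% and 14.4% of its window and H4K12pr over 16.75% and 17.2%. The acetyl marks differed by site: H3K18ac covered 20.95% and 25.2% in untreated, 7.03% and 10.0% in NaPr and 12.65% and 9.38% in NaBu cells, whereas H4K12ac covered 1.79% and 0%, 0% and 1.17%, and 3.82% and 0%. H3K18ac exceeded H4K12ac without overlap in all 3 conditions, and the propionyl sites overlapped. H3K18bu covered 0% and 4.81% and H4K12bu 0% in both. The inputs were at 3.56%, 0% and 6.58%, so that 10 of 20 libraries exceeded all inputs. The commonest region, chr19:38212846-38215849 over exon 10, was held by 11 libraries, 9 against H3K18, and by 1 input, with a highest fold of 17.4. The TSS region, chr19:38223118-38224981, was held by 9 libraries and 1 input, and the canonical TSS lies 5492 bp inside the gene record.

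*DPF2* (chr11:65333843-65354262, plus strand, 20.4 kb, window shared with TIGD3) carried H3K18pr over 5.25% and 2.11% of its window and H4K12pr over 29.6% and 6.55%. H3K18ac covered 23.1% and 5.44% in NaPr, 1.89% and 1.59% in NaBu and 12.4% and 9.29% in untreated cells. H4K12ac covered 5.00% and 5.53% in NaPr, 0% and 0% in NaBu and 17.8% and 14.2% in untreated cells. The untreated values were above all NaBu values, and the inputs were at 0%, 0.504% and 0%. Its region over the TSS, chr11:65333101-65334941, was held by 12 libraries, among them all 4 propionyl and no butyryl libraries. *DPF3* (chr14:72609034-72894101, minus strand, 285.1 kb) was covered by 0% to 3.58%, the highest in H3K18pr replicate 1, and exceeded all inputs in 14 of 20 libraries. Merging gave 104 regions, 87 of them in 1 library, and the commonest, chr14:72607611-72609905 over exon 11 at the far end of the gene, was held by 11.

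Occupancy of the TSS was counted where both libraries of a group held it, beside the share of all protein-coding genes that did so. H3K18ac held 7 of 9 members in untreated cells (62.8% of all genes) and 7 in NaPr cells (49.7%), and without the doubtful library, as judged by replicate 2, again 7 (52.2%). H3K18ac in NaBu cells held 4 (38.2%), and H4K12ac held 4 in untreated (57.8%), 1 in NaPr (13.5%) and 1 in NaBu cells (11%). H3K18pr and H4K12pr each held 4, *YEATS2*, *YEATS4*, *DPF2* and *BRD2* in both cases, where 39.3% and 44.1% of all genes were held. H3K18bu and H4K12bu held 0 members, where 7.03% and 4.24% of all genes were held. In single libraries H3K18bu held 1 and 1 members (15.6% and 9.06% of all genes) and H4K12bu 1 and 0 (8.71% and 5.82%). The untreated input held the TSS of *DPF1* and *BRD2* (14.6%), and the NaPr (4.32%) and NaBu (1.28%) inputs held none. As shares of the 9 members the counts ran from 0% to 77.8%. Over single libraries the TSS was held in 16 of 20 for *BRD2*, 15 for *YEATS2*, 13 for *YEATS4*, 12 for *DPF2*, 9 for *DPF1*, 7 for *MLLT1*, 4 for *BRD3*, 3 for *MLLT3* and 1 for *DPF3*.

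**Figure D3:**
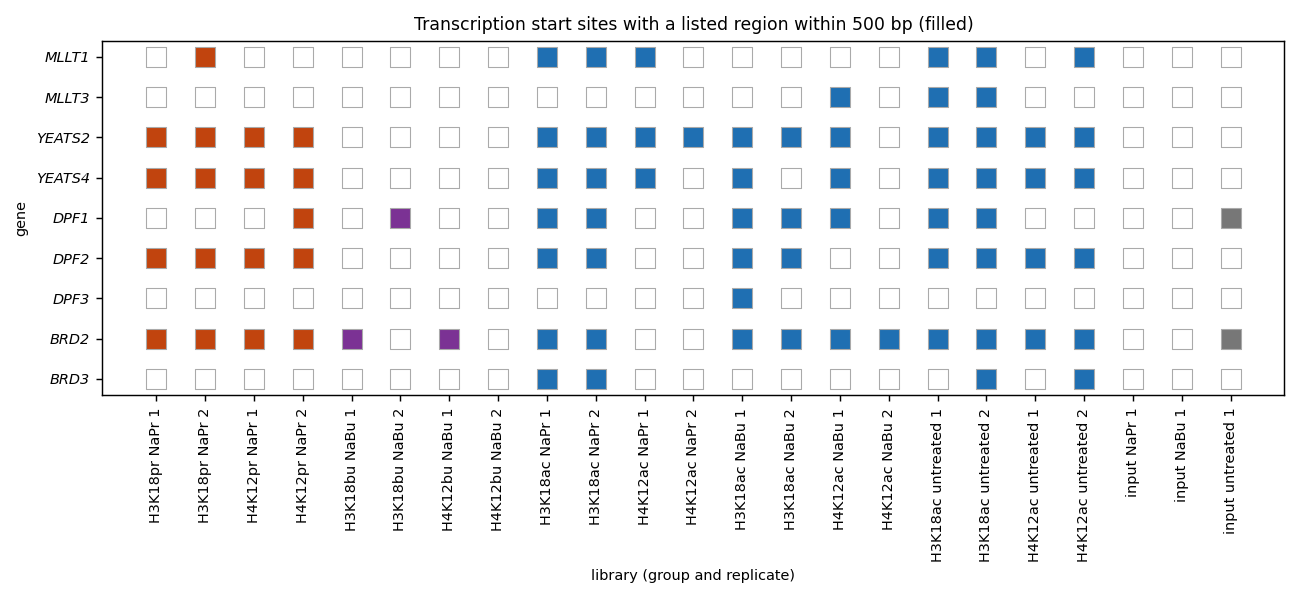
Occupancy of the transcription start site of each gene (y axis) in each library (x axis), where a filled square marks a listed region within 500 bp of the site. *BRD2* is filled in 16 and *YEATS2* in 15 of the 20 immunoprecipitated libraries, *DPF3* in 1, and the untreated input is filled for *DPF1* and *BRD2*.

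The first comparison asked how each acyl mark was placed against the acetyl mark of the same site and treatment. Averaged over the 4 strata of site and treatment, no member differed by the two-sided exact permutation test over libraries (smallest possible p 0.00154), with p adjusted by Benjamini-Hochberg over 18714 genes. Of all genes 0% were called, and at an unadjusted p under 0.05 0.198% were higher and 3.16% lower for the acyl marks, 629 genes in all, none of them a member. The median difference was 0.07 percentage points over the members and 0.03 over all genes. The strata differed from each other, and the average hides this. For H4K12 in NaPr cells both propionyl libraries exceeded both acetyl libraries for 8 of 9 members, where 63.9% of all genes did so and 5.43% the reverse. Among them *BRD3* was higher by 27.4, *BRD2* by 22.02, *DPF1* by 16.4 and *DPF2* by 12.8 percentage points, and *MLLT3* overlapped. The listed regions were also wider in these lists, with a median of 490 and 513 bp in H4K12pr and 246 and 256 bp in H4K12ac, and a shortest of 340 bp against 180 and 185 bp. By number of regions *YEATS2* had 29 and 25 in H4K12pr against 38 and 29 in H4K12ac, and *DPF3* 10 and 8 against 12 and 13, the other way round; the part of region width in the coverage differences was not tested.

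For H3K18 in NaPr cells, propionyl exceeded acetyl for 1 member, *DPF1* by 9.07 percentage points (13.1% of all genes), and was below it for *YEATS2* and *DPF2* (13% of all genes), with differences of -7.29 and -10.6. Without H3K18ac NaPr replicate 1, 5 members were higher (50.3% of all genes), *DPF1* by 7.57, *BRD3* by 7.48, *MLLT1* by 2.80, *YEATS4* by 1.56 and *MLLT3* by 0.08, and *YEATS2* and *DPF2* were lower (17.7%), at -0.63 and -1.75. The H3K18 count in NaPr cells thus rests on that library. In NaBu cells, where both marks came from 1 batch, H3K18bu was below H3K18ac for 7 members (72.8% of all genes, 0.14% the reverse), led by *BRD2* at -14.6 and *DPF1* at -8.61. H4K12bu was below H4K12ac for *YEATS2* and *BRD2* (25.1% of all genes, 0.154% the reverse), by -1.02 and -9.12. These were the 2 members with a region in H4K12ac NaBu replicate 2. The others had none there, so H4K12bu could not lie below both acetyl libraries for them. The members' share was furthest from that of all genes for H4K12 in NaPr cells, and the propionyl and acetyl libraries cannot be told apart from their batches. Regions held by both libraries of one mark and neither of the other included, for H4K12pr, the TSS region of *DPF2* (chr11:65333363-65334801, fold 4.46 and 3.88), the exon 10 region of *DPF1* (chr19:38213040-38215729, fold 10.7 and 5.996) and an intronic region of *BRD3* (chr9:134055527-134056954, fold 5.16 and 5.39). No such region of H3K18bu or H4K12bu was found in any member.

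**Figure D4:**
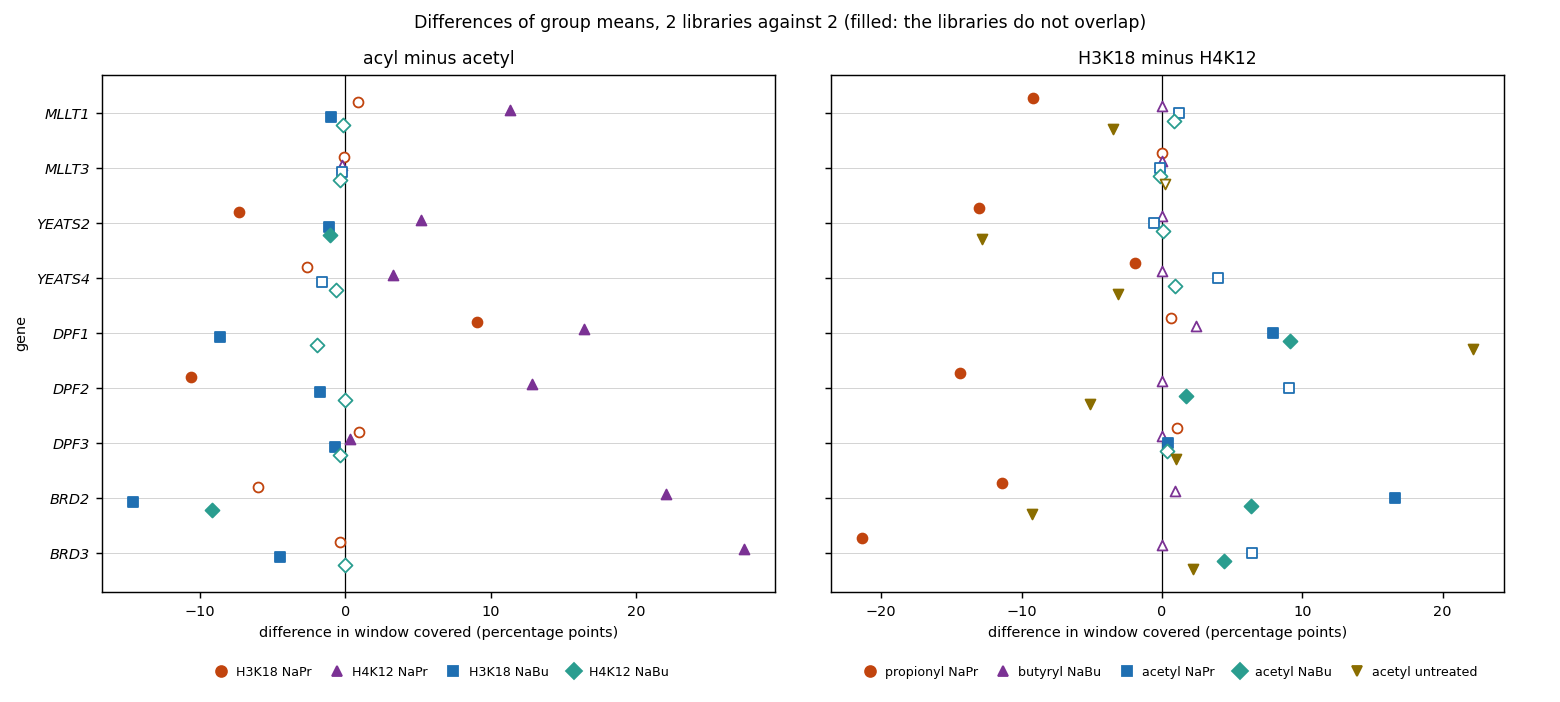
Differences of group means in percentage points of the window covered (x axis) for each gene (y axis), acyl minus acetyl on the left and H3K18 minus H4K12 on the right, with 1 symbol per stratum. Filled symbols have libraries that do not overlap. On the left 8 of 9 genes lie to the right of 0 for H4K12 in NaPr cells, and on the right *DPF1* reaches 22.2 in untreated acetyl libraries.

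Between the histone sites, 3 members passed an unadjusted p under 0.05 and none an adjusted one. *DPF1* averaged 12.5% in H3K18 and 4.07% in H4K12 libraries, a difference of 8.45 percentage points over 5 strata (p = 0.00231, adjusted p = 0.0993, exact permutation test), and 4.43 once regions over input peaks were removed. *YEATS2* averaged 2.43% and 7.69%, a difference of -5.27 (permutation p = 0.0262, adjusted 0.260). With same-numbered libraries paired as a block the p of *YEATS2* was 0.0547, and with regions at q below 0.001 its difference was -2.38 (p = 0.148, permutation tests). *DPF3* averaged 1.37% and 0.809%, a difference of 0.56 (permutation p = 0.0448, adjusted 0.312). Of 18868 genes 0% were called (smallest adjusted p 0.0511), and 12.6% were higher and 2.53% lower in H3K18 at an unadjusted p under 0.05. Without H3K18ac NaPr replicate 1 the differences were 8.75 for *DPF1* (adjusted permutation p = 0.0934) and -6.60 for *YEATS2* (p = 0.00772, adjusted 0.113).

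Within strata the order of the sites changed. For the propionyl mark, H3K18 lay below H4K12 for 6 members and above it for 0, where 44% of all genes lay below and 8.33% above. For untreated acetylation 3 lay above, *DPF1* by 22.2, *BRD3* by 2.25 and *DPF3* by 1.01 percentage points, and 5 below, with *YEATS2* at -12.8 and *BRD2* at -9.26 (22% of all genes above and 38.1% below). For acetylation in NaPr cells 3 lay above and 0 below (40.3% and 4.37%), with *BRD2* at 16.6. Without the doubtful replicate 3 lay above, with *BRD2* at 10.5, and 4 below, *YEATS2* at -7.20, *BRD3* at -1.45, *MLLT1* at -0.72 and *MLLT3* at -0.26 (47.8% and 28.5%). In NaBu cells 4 lay above and 0 below (48.1% and 0.105%). The butyryl libraries overlapped for all 9 members, where 40.7% of all genes lay above and 1.57% below. When every list was cut to its 8158 strongest regions, the difference of *YEATS2* was 0.18 and that of *DPF1* 1.37 (permutation p = 0.5 for both), so neither was as large among the strongest regions alone. The unadjusted p of *YEATS2* was 0.117 without H3K18ac NaPr replicate 2 and 0.0864 without H4K12ac NaPr replicate 1, and that of *DPF3* was between 0.0514 and 0.146 without any 1 of 11 libraries (permutation tests); *DPF1* kept its own in each of these.

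Treatment was examined on acetylation alone. With 8 libraries the exact permutation test could not go below p = 0.0556, and a gene was set apart when both treated libraries lay on one side of both untreated libraries at both sites. In NaBu cells 4 members were lower in this way, with differences of -13.1 percentage points for *BRD2*, -12.5 for *DPF2*, -8.93 for *BRD3* and -6.88 for *YEATS4* (adjusted permutation p = 0.0971 for each), and none higher, where 56.9% of 18358 genes were lower and 0.256% higher. The median was -6.88 over the members and -4.23 over all genes, and the NaBu libraries were a batch of their own, which cannot be told apart from the treatment. These differences include the short list of H4K12ac NaBu replicate 2. With any 1 library left out they ranged from -14.8 to -11.4 for *BRD2* and from -13.4 to -11.7 for *DPF2*. The ranges were -9.69 to -8.18 for *BRD3* and -8.01 to -5.76 for *YEATS4*. The *BRD2* difference was -1.78 once regions over input peaks were removed. In NaPr cells, within 1 batch, 0 members were set apart, where 11.6% of 18472 genes were lower and 0.476% higher. Without H3K18ac NaPr replicate 1, 5 were lower, *MLLT1*, *YEATS4*, *DPF2*, *BRD2* and *BRD3* (permutation p = 0.0556, adjusted 0.137, for each), where 57.5% of all genes were lower and 1.71% higher. The difference was then -13.8 percentage points for *BRD2* and -9.275 for *BRD3*. The NaPr count thus rests on 1 library, and in both treatments the share of members was close to or below that of all genes.

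Against the inputs *BRD2* was the 1 member at an unadjusted p under 0.05. It averaged 29.0% in the immunoprecipitated and 0.968% in the input libraries, a difference of 29.8 percentage points over the 3 conditions (exact permutation p = 0.00247, the smallest possible, adjusted p = 0.0791), and was higher in 20 of 20 libraries. Of 19018 genes 0% passed the adjusted test, and 32.5% were higher and 2.92% lower at an unadjusted p under 0.05. *YEATS2*, *YEATS4*, *DPF2* and *DPF3* exceeded all inputs in 14 of 20 libraries, *MLLT1* and *BRD3* in 13, *DPF1* in 10 and *MLLT3* in 1. The matching counts for other genes were not computed, so these do not show that the members differ from genes at large. On the log2(percent + 1) scale the adjusted permutation p of *BRD2* was 0.0372, and 2064 genes passed. The design has 1 input per condition, so the spread between inputs of a condition is unknown.

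The best region of *BRD2* ranked between 0.0350% and 9.62% of the list, with its weakest ranks in the butyryl libraries and H4K12ac NaBu replicate 2. These were the shortest immunoprecipitated lists, and a percentage rank moves with list length. By position it stood at 1720 and 650 in H3K18bu, 753 and 785 in H4K12bu and 639 in H4K12ac NaBu replicate 2. It stood at 1408 in H3K18ac NaBu replicate 1 and between 39 and 339 in the remaining libraries. *YEATS4* ranked from 0.606%, in H3K18ac NaPr replicate 1, to 30.2%, and was in the top 10% in 9 libraries. Its best rank in any other library was 0.707%, in H3K18ac untreated replicate 2. *YEATS2* was in the top 10% in 11 libraries, *DPF1* in 6, *DPF2* in 5, *MLLT1* and *BRD3* in 2, and *MLLT3* and *DPF3* in none. Of 180 pairs of gene and library, 139 had a region and 55 had one in the top 10%. Ranks were computed for the reader genes only. The share of all genes with such ranks is therefore unknown, and the counts do not set the readers apart from other genes. Some input regions also ranked high: *BRD2* at 0.793% in the untreated input, *DPF1* at 1.07% and *MLLT3* at 4.81% in the NaPr input.

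**Figure D5:**
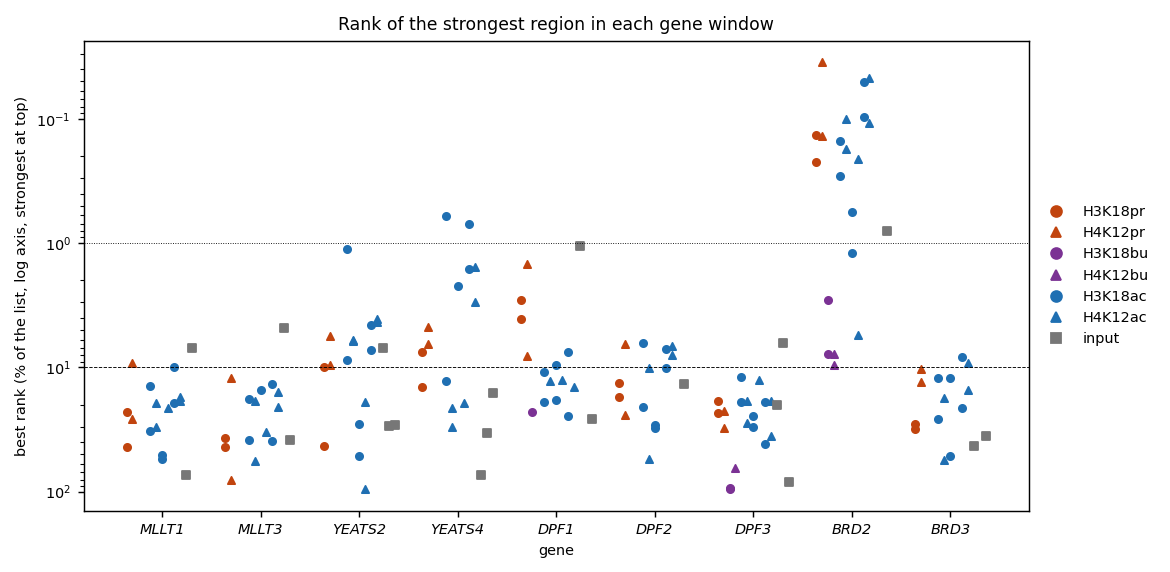
Rank of the strongest region in each gene window as a percentage of the list (y axis, log scale, strongest at the top) for each gene (x axis), with 1 point per library that has a region. The dotted and dashed lines mark 1% and 10%. *BRD2* lies between 0.0350% and 9.62%, and no point of *MLLT3* or *DPF3* from an immunoprecipitated library lies above the dashed line.

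The 27 other bromodomain and double PHD finger readers gave a background of related genes. Against the inputs 7 of 27 passed an unadjusted p under 0.05 and all were higher, where 32.5% of all genes were higher. Among them were ZMYND8 by 21.2 percentage points, TRIM28 by 19.3, BAZ2A by 12.3, and PHF10, BRPF1 and TAF1. H3K18 was lower than H4K12 for 3 of 27 (BPTF, BRWD1 and ASH1L) and higher for 0, beside 2.53% and 12.6% of all genes. Acyl was lower than acetyl for 1 (BAZ2B), beside 3.16% of all genes. With NaBu 22 of 27 were set apart and lower (56.9% of all genes). In untreated cells 25 of 27 had an occupied TSS for each acetyl site, against 7 and 4 of the 9 members and 62.8% and 57.8% of all genes. Among the genes for complex partners, 5 of 8 elongation partners, 7 of 10 ATAC partners, 7 of 10 NuA4 and SRCAP partners and 13 of 16 BAF partners were set apart and lower with NaBu, beside 56.9% of all genes. For acyl against acetyl, 1 elongation partner (AFF1) was higher at an unadjusted p under 0.05 and 0 of the other partners, beside 0.198% of all genes. Between the sites ELL2 and SS18 were higher in H3K18 (12.6% of all genes), and ZZZ3, EPC1 and ARID1B lower (2.53%).

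Across the 20 immunoprecipitated libraries, *YEATS4* and *DPF2* had the most alike coverage of any pair of members (Spearman 0.888), followed by *YEATS4* and *BRD2* (0.882) and *MLLT1* and *BRD3* (0.877), and *YEATS2* and *DPF1* the least (0.210). Outside the list, the gene most like each member was RTF2 for *YEATS2* (0.977), SDCBP for *YEATS4* (0.985), REXO4 for *DPF2* (0.985), MUC12 for *DPF1* (0.932), SPAG7 for *BRD2* (0.977), SGSM2 for *BRD3* (0.978), ANKRD11 for *MLLT1* (0.979), RGS5 for *MLLT3* (0.930) and KIF19 for *DPF3* (0.956). These values share libraries and list lengths, and no test was made of them.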

How the data were processed

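ChIP-seq was made by the authors in SW480 cells. Per the submitters' processing notes reads were handled with bcl2fastq 2.17.1, cutadapt 1.8.1 and Bowtie2 2.3.1, and MACS2 2.1.0 called regions per library at p 0.01 on hg38. The deposited lists give each region's fold over background (a ratio) and the −log10 p-value and −log10 q-value that the authors' caller assigned; replicates were not pooled. Region lists hold no reads, so depth was inferred only where pileups came out whole.

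From these lists, coverage, region count, best rank by −log10 p and TSS occupancy (500 bp each side, at least 1 bp shared) were computed with Python 3.11.15, numpy 2.4.6, pandas 2.3.3 and scipy 1.17.1 for all 20007 genes. Libraries were permuted exactly within strata, two-sided, and p adjusted by Benjamini-Hochberg over all genes tested. Deviations of same-numbered libraries correlated over 0.1 in 11 of 13 pairs of groups (0.0540 to 0.351), among them all 5 pairs between the histone sites (0.151 to 0.351), though no label states a shared culture. The permutation code was tested on simulated data. Genes with no region in a comparison were not tested. Alternatives covered q below 0.05 and 0.001, equal list lengths, flanks, removal of input peaks, log2(percent + 1), region counts and each library left out. All 9 members were named, with regions chosen by the number of libraries. The members and the gene lists (other readers, complex partners, cell type markers) were chosen with earlier results of these data known. Run tags came from list names, not labels. Sequences of proteins were not used here.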

Additional observations from a re-analysis of the deposited data

Results flagged for a closer look

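In the cases below the effect of one contrast ran in opposite directions in 2 strata, with every library of one group on one side in each stratum; these differences between strata were not tested. Coverage of *YEATS2* in NaPr cells was lower for H3K18pr than for H3K18ac (-7.29 percentage points of its window). It was higher for H4K12pr than for H4K12ac (5.22), and *DPF2* did the same (-10.6 and 12.8). Of all genes 13% were lower in this way at H3K18 and 63.9% higher at H4K12. By number of regions *YEATS2* did not have more in H4K12pr (29 and 25) than in H4K12ac (38 and 29). *DPF2* had 9 and 3 against 3 and 5. Without H3K18ac NaPr replicate 1 the H3K18 values were -0.63 for *YEATS2* and -1.75 for *DPF2*.

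Coverage of *BRD2* was higher for H3K18ac than for H4K12ac in NaPr cells (16.6 percentage points, 10.5 without H3K18ac NaPr replicate 1) and in NaBu cells (6.37). It was lower in untreated cells (-9.26). Coverage of *DPF2* was higher in NaBu cells (1.74) and lower in untreated cells (-5.12). Of all genes, H3K18ac lay above H4K12ac for 40.3% in NaPr and 48.1% in NaBu cells, and below it for 38.1% in untreated cells. Acetyl coverage of *YEATS2* was higher in NaPr than in untreated cells at H3K18 (6.74) and lower at H4K12 (-5.56). Without H3K18ac NaPr replicate 1 the H3K18 difference was 0.08. The NaBu values coincide with a batch, whose part was not tested.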

How the results depend on the processing

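Of the differences of single members under the alternatives, 990 were labelled the same, 36 moved, 25 weaker and 2 reversed. For members without a call, the same mostly meant a change smaller than the spread between replicates, and the sign could differ. With 1 library left out, the acyl minus acetyl difference ran from -4.00 to 0.19 for *BRD2* and from -2.76 to 3.00 for *DPF2*. Cutting every list to 8158 regions turned the H3K18 minus H4K12 difference of *YEATS2* to 0.18 and of *DPF3* to -0.013. It gave 1 member at an unadjusted p under 0.05 between sites, *BRD2* (5.52, permutation p = 0.00231), in place of the 3 reported, where 15.9% of all genes were higher. It left 2 members set apart with NaBu (4 as reported, 25.9% of all genes). Pairs of member and group with an occupied TSS were then 11 (32 as reported), and a region over the TSS base itself gave 10. The share of all genes was not computed for these pairs. With regions at q below 0.05 the counts were 8 with NaBu (64.9% of all genes), 1 with NaPr (0 as reported, 12.3%) and 2 against input (1 as reported, 34%), and at q below 0.001 they were 8 with NaBu (66.8%) and 1 with NaPr (14.5%). Counting regions gave 2 members for acyl against acetyl, *MLLT3* (-3.38) and *YEATS2* (-9.25), with 12.9% of all genes lower, and 1 with NaBu (13.1%). Removing regions over input peaks gave 1 for acyl against acetyl, *BRD2* (8.47, exact permutation p = 0.0401; 0.166% of all genes higher), set *BRD2* at -7.99 between sites (permutation p = 0.00952), 4.28 with NaPr and -1.78 with NaBu, and moved *DPF1* from 3.73 to -0.16 for acyl against acetyl and from 8.45 to 4.43 between sites. On the log2(percent + 1) scale 5 members were higher than input (48.4% of all genes), *BRD2* with an adjusted permutation p of 0.0372, and 2064 genes passed the adjusted test (0 as reported). A flank of 5 kb set 1 member apart with NaPr (11.5%). The cause of these shifts was not tested.

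Leaving out 1 library gave 0 to 1 members for acyl against acetyl (1 without H4K12ac NaBu replicate 2), 1 to 3 between sites (1 without H3K18ac NaPr replicate 2 or H4K12ac NaPr replicate 1), 4 to 6 with NaBu, 1 to 2 against input (2 without H4K12pr replicate 1 or H4K12ac NaPr replicate 2), 32 to 36 occupied pairs, and 0 to 5 with NaPr (5 without H3K18ac NaPr replicate 1). For the last, 57.5% of all genes were lower, and the matching shares of the other counts were not computed. Over all genes the adjusted calls between sites ranged from 0 to 611, with 611 without H4K12pr replicate 1 and 102 to 114 without H3K18pr replicate 2, either H3K18bu replicate, H3K18ac NaPr replicate 1 or H3K18ac untreated replicate 2. With the replicate block 2 members passed between sites, both higher in H3K18, where 11.5% of all genes were higher and 0.922% lower. *YEATS2* did not pass (permutation p = 0.0547), and 4 were set apart with NaBu (56.9% of all genes). The block changed no other call. The butyryl lists were short and their depth is unknown, so a gene without a region there was not detected, which does not show that the mark was absent.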
